A study of Mus musculus with 145 samples.

Results

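The genes described here are 9 members of the pathway from leukaemia inhibitory factor (LIF) to STAT3, named as a list and found by symbol. They are the receptor chains *Lifr* and *Il6st*, the kinase *Jak1*, the transcription factor *Stat3*, the feedback inhibitors *Socs2* and *Socs3*, and the serine/threonine kinases *Pim1*, *Pim2* and *Pim3*. All 9 were found among the 24615 genes of the STRT-seq count table. All 9 were also among the 20030 genes that passed the filter on low counts for the comparison of cell classes. They were followed from spermatogonial stem cells (SSCs) through 4 reprogramming classes (RPG1 to RPG4) and the failed branches to germline-derived pluripotent stem cells (gPSCs) and embryonic stem cells (ESCs).

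LIF binds the receptor chain LIFR, which pairs with the shared chain gp130, the product of *Il6st*. The chains hold JAK1, which phosphorylates STAT3, and phosphorylated STAT3 enters the nucleus and switches on target genes. *Socs3* is a target whose product binds gp130 and JAK kinases and shuts the signal down, and *Socs2* encodes a related inhibitor best known from growth hormone signalling. The Pim kinases are cytokine-induced kinases that act on growth and survival. In mouse ESCs the pathway is known for keeping cells undifferentiated.

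The SSCs were derived from male mice at postnatal day 5.5, born to C57BL/6 females and DBA/2 males and carrying an *Oct4*-EGFP transgene (EGFP driven by the *Oct4* promoter). All SSC and reprogramming cultures contained LIF, given as ESGRO at 1000 U/mL, with EGF at 20 ng/mL, bFGF at 10 ng/mL and GDNF at 10 ng/mL, on feeder cells. The gPSCs and ESCs were kept in N2B27 with 2iL, which also holds LIF. No culture without LIF was among the samples, so the values are levels of transcripts under LIF and do not measure the response to it. In the original condition, with no added compounds, 46 libraries were made on days 0 to 27, 36 in batch B1 and 10 in batch B2, and there was 1 library each of gPSC-1, a single line sampled at passages 1 (p1) and 15 (p15), and of an ESC line. A second experiment (scTrio-seq2) gave the RNA of 8 samples treated with 5C, which is SGC707, vitamin C, EGCG, Daphnetin and TUDCA together, and of 5 samples given the solvent DMSO. The 18 clusters were named by the authors and are used as they deposited them, in 9 classes: SSC1-4, RPG1, RPG2, RPG3, RPG4 and the Fibroblast, Early-pluripotency, Meiotic and Neural cells of the failed branches.

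Colonies were dissociated with trypsin, single cells were moved into lysis buffer by mouth pipette, and each cell's molecules were counted by unique molecular identifiers (UMIs). The original condition held 4339 cells with 15975410 to 34609591 UMIs in a library, and no cell name occurred in 2 libraries. Counts were summed over the cells of a class in a library where there were at least 5, and a level is given as CPM, the gene's UMIs divided by all UMIs of that sum and multiplied by 1000000. Means are given ± SD over libraries. CPM is not scaled for transcript length, so levels are compared within a gene only, and fold changes use TMM-scaled library totals and so need not equal ratios of CPM. SSC1-4 gave 36 such sums, RPG1 7, RPG2 3, RPG3 8, RPG4 2, Fibroblast 5, Early-pluripotency 3, Meiotic 6 and Neural 12. The RPG2 sums came from batch B2 alone and the RPG4 sums from day 20 of batch B1 alone. The Early-pluripotency sums were likewise all of B2 and the Fibroblast sums all of B1. Each of these classes was also compared with the SSC1-4 libraries of its own batch. Only 2 of the 7 RPG1 libraries, 2 of the 3 RPG2 libraries, 2 of the 8 RPG3 libraries and neither RPG4 library also held a sum of SSC1-4 cells. The labels were checked against marker lists. The 7 SSC markers summed to 1591 to 2411 CPM in SSC1-4 and to 264 to 278 in RPG4. For the 6 pluripotency markers the sums were 63.9 to 397 CPM in SSC1-4 and 1805 to 2271 in RPG3. Both sums overlapped those of SSC1-4 for RPG1 (SSC 1575 to 1887, pluripotency 172 to 449) and Early-pluripotency (1649 to 1851, 114 to 227). They do not set these 2 classes apart. Against its list, the SSC marker *Etv5* was on average higher in RPG4 (154), RPG3 (232) and RPG2 (215) than the 71.3 CPM of SSC1-4. The 11 markers of feeder fibroblasts summed to 13 to 170.4 CPM in SSC1-4 and 10.3 to 41.7 in RPG3. They lay below all SSC1-4 libraries in RPG2 (5.94 to 11.5) and RPG4 (9.46 to 9.53). Their part in the differences was not tested. The 9 immediate-early genes that mark handling summed to 377 to 1293 in SSC1-4 and 415 to 699 in RPG3.

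In the mouse genome (GRCm38, GENCODE vM21) *Lifr* lies on chromosome 15, 7090614 to 7197489 on the plus strand, and *Pim3* lies on the same chromosome at 88862186 to 88865726. *Il6st* spans chromosome 13, 112464070 to 112510086 on the plus strand. *Jak1* spans chromosome 4, 101152367 to 101265282 on the minus strand, and exons of *Raver2* on the other strand overlap it. *Stat3* occupies chromosome 11, 100885098 to 100939540 on the minus strand, where exons of *Stat5a* overlap it from the other strand. *Socs3* is on the same chromosome at 117966079 to 117970047, and *Socs2* on chromosome 10, 95385362 to 95417180 on the minus strand. *Pim1* is on chromosome 17, 29490753 to 29496112 on the plus strand, overlapped by the antisense gene *Gm26885*, and *Pim2* on chromosome X, 7878262 to 7883432 on the plus strand. Whether the counting used strand is not given in the sources used here, and without strand the reads of *Jak1*, *Stat3* and *Pim1* cannot be told apart from those of these overlapping exons.

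STAT factors bind DNA at TTCNNNGAA. RefSeq windows from 250 bases before to 50 bases after the gene start (GRCm38.p6) were found for 8 of the 9 genes, all but *Socs2*, which was not searched. They made 10 windows in all, and of these only that of *Socs3* held the motif, which reads the same on both strands. Among all 32851 windows of 300 bases, 8.3% held it, and the shorter spacing TTCNNGAA was in 8.52% and in none of the 10 windows. The match, shown because it is the single one among the members, begins 154 bases before the RefSeq start of *Socs3*, and the stretch chr11:117969502-117969530 on the minus strand is printed with the motif in capitals.
*Socs3* upstream stretch: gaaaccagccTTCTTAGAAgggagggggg
This stretch lies inside the GENCODE span of *Socs3* given above (117966079 to 117970047), so it is upstream of the RefSeq start alone. A match of letters is a description of the window and not a measured site.

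Between SSC1-4 and RPG3, the class with pluripotency markers and the most libraries on that path, *Socs2* was 18.9-fold and *Pim2* 7.42-fold higher, while *Jak1* was 5.01-fold, *Stat3* 2.28-fold and *Pim1* 2.19-fold lower. *Lifr* and *Pim3* were 1.67-fold and 1.82-fold higher, and *Il6st* and *Socs3* did not pass the test. The question of these comparisons is how the LIF pathway genes stood in each class along the successful branch. Tests used edgeR's quasi-likelihood F test on the summed counts, with p-values adjusted by Benjamini-Hochberg over all genes, and a gene passed at an adjusted p below 0.05. The authors drew the classes from the same transcriptomes, so these tests describe how far apart the classes lie.

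In RPG1, 2 of the 9 genes were higher than in SSC1-4 and 0 lower, where 2.58% of all 20030 genes were higher and 2.03% lower. In RPG2, 4 were higher and 2 lower, against 17.5% and 18.5% of all genes. RPG3 had 4 higher and 3 lower, against 25.2% and 31.5%. RPG4 had 2 higher and 3 lower, against 12.6% and 15.1%. Within B2, RPG2 passed for 5 of the 9 genes (*Jak1* -2.37, adjusted p = 9.38e-08; *Socs2* 4.89, adjusted p = 9.80e-12). Within B1, RPG4 passed for 5 (*Jak1* -2.29, adjusted p = 1.06e-11; *Pim2* 4.00, adjusted p = 1.14e-20). The shares of all genes that passed in these fits within a batch are not reported here. In RPG3 the 7 of 9 genes that passed stood in a comparison in which most genes passed. The median log2 fold change of the 9 genes for RPG1 to RPG4 was 0.19, 0.22, 0.10 and -0.78, beside -0.05, -0.52, -0.25 and -0.54 over all genes. Scaling by RLE size factors in place of TMM moved the median of all genes from -0.54 to -0.39 in RPG4 against SSC1-4, and turned the split of all genes there from 2515 higher and 3028 lower to 3034 and 2638. No member that passed changed direction or lost its call by it in any comparison of the classes. Among those that did not pass, *Socs3* in RPG4 turned from -0.12 to 0.02 against SSC1-4 and from -0.09 to 0.03 against RPG3, *Stat3* from -0.11 to 0.01 in RPG4 against RPG3, and *Stat3* from -0.01 to 0.03 in Fibroblast.

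**Figure D1:**
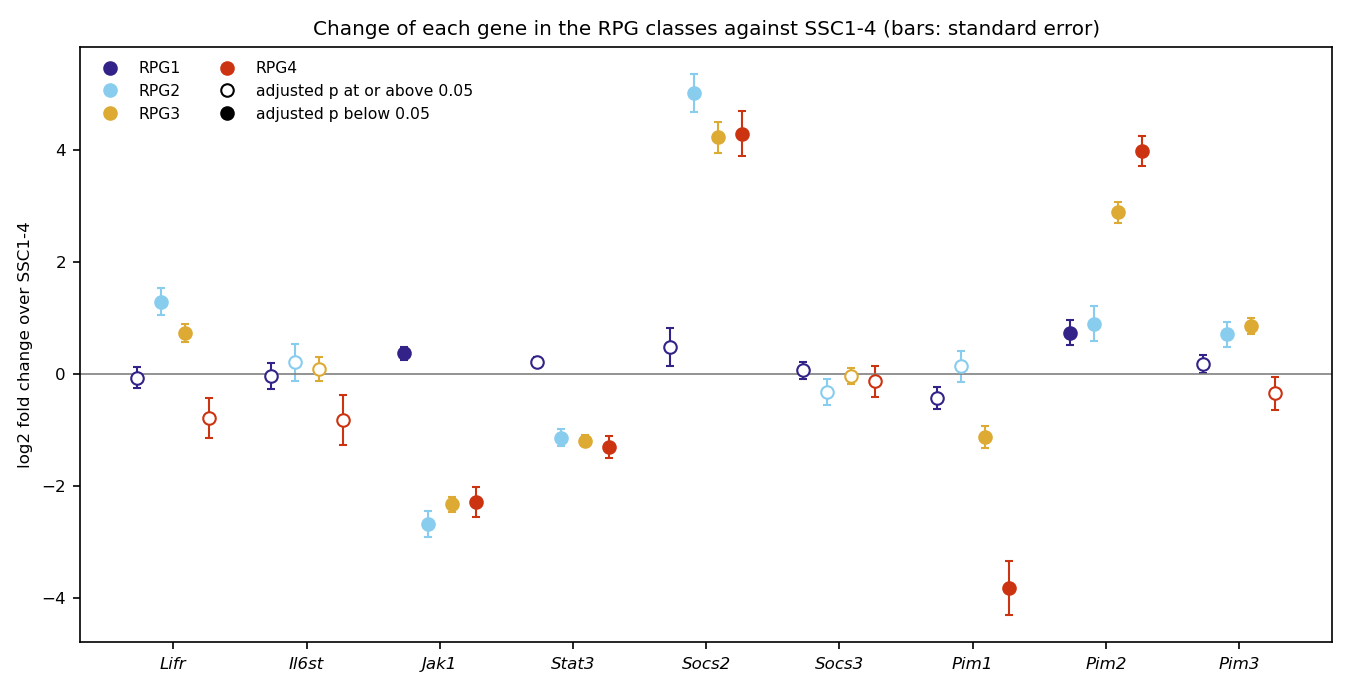
Log2 fold change of each of the 9 genes in RPG1 to RPG4 against SSC1-4 (y axis), with standard errors as bars and filled points for an adjusted p below 0.05. *Socs2* lies above 4 in RPG2, RPG3 and RPG4, *Jak1* below -2 in the same classes, and *Pim1* and *Pim2* move apart from RPG2 to RPG4 (0.14, -1.13 and -3.82 for *Pim1*; 0.90, 2.89 and 3.99 for *Pim2*).

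Of the receptor chains, *Lifr*, the chain specific to LIF and its close relatives, had its highest mean among the 9 classes in RPG2, where 1 library raised it. Its CPM in SSC1-4 ran from 9.24 over a median of 29.7 to 50.1 over the 36 libraries (mean 29.4 ± 8.73), and in RPG1 from 21.8 over a median of 25.6 to 41.4 over 7. In the 3 RPG2 libraries it was 111 on day 12 (replicate 2), 42.2 on day 14 (replicate 5) and 46.6 on day 14 (replicate 6), so that 1 library stood far above the others. RPG3 ran from 31.6 over a median of 39.5 to 55.7 CPM, and the 2 RPG4 libraries had 8.74 and 25.8. All of these ranges overlapped that of SSC1-4. *Lifr* rose in RPG2 (log2 fold change 1.30, SE 0.24, adjusted p = 5.80e-06) and in RPG3 (log2 fold change 0.74, SE 0.17, adjusted p = 0.000114), and neither RPG1 (-0.06, adjusted p = 0.911) nor RPG4 (-0.78, adjusted p = 0.0991) passed. The RPG4 value rested on which of its 2 libraries was used, -0.19, adjusted p = 0.8 without day 20 replicate 1 and -1.73, adjusted p = 0.0253, past the threshold, without day 20 replicate 2. Within batch B1 the RPG3 value was 0.67 and within B2 1.08, both past the test. With the library as a block, which rests on the 2 libraries that hold both classes, neither call was kept (RPG2 1.25, adjusted p = 0.0618; RPG3 0.50, adjusted p = 0.536).

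*Il6st*, the gp130 chain that all cytokines of this family share, passed the test in no class of the successful branch. SSC1-4 averaged 29.98 ± 10.9 CPM. RPG1 averaged 29.4 ± 6.07, RPG2 31.9 ± 12.5, RPG3 27.5 ± 11.9 and RPG4 17.2 ± 6.39, and the ranges of libraries overlapped throughout. The 4 comparisons with SSC1-4 gave log2 fold changes of -0.03, 0.22, 0.10 and -0.81 (adjusted p 0.969, 0.608, 0.716 and 0.177). With an SE of 0.45 in RPG4, a change of the size seen there could not be told from none.

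*Jak1*, the kinase that transmits the signal from the receptor, fell most among the members that are lower in RPG2 and RPG3. In SSC1-4 it ran from 132 over a median of 213 to 323 CPM (mean 215 ± 47.4). In RPG2 it was 39.3 on day 12 and 20.1 and 31 on day 14. In the 8 RPG3 libraries it ran from 22.9 over a median of 36.4 to 51.1, and in RPG4 it was 47.7 and 41.5. No library of these classes reached the lowest SSC1-4 library. *Jak1* was 6.39-fold lower in RPG2 (log2 fold change -2.68, SE 0.23, adjusted p = 9.66e-18), 5.01-fold lower in RPG3 (log2 fold change -2.32, SE 0.14, adjusted p = 3.22e-27) and 4.86-fold lower in RPG4 (log2 fold change -2.28, SE 0.27, adjusted p = 2.39e-11). In both batches the RPG3 change was near that size (-2.34 in B1, -2.04 in B2). RPG1 showed the opposite sign, from 221 over a median of 284 to 323 CPM (log2 fold change 0.38, SE 0.12, adjusted p = 0.0434). That RPG1 call was lost within each batch (B1 0.30, adjusted p = 0.236; B2 0.76, adjusted p = 0.312) and with the library as a block (0.11, adjusted p = 0.993). It was also lost when any of day 18 replicates 3 and 5, day 20 replicates 2 and 8 and day 23 replicate 1 was left out (adjusted p 0.0575 to 0.135).

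*Stat3* itself, the transcription factor at the end of the pathway, fell in the same 3 classes by a smaller factor. SSC1-4 libraries ran from 124 over a median of 264 to 334 CPM (mean 264 ± 40.5). RPG2 gave 136, 111 and 77.9, RPG3 ran from 77.9 over a median of 98.8 to 127, and RPG4 gave 106 and 109. The RPG2 and RPG3 ranges met only the lowest SSC1-4 library, and RPG4 lay below all of them. The fall was 2.19-fold in RPG2 (-1.13, adjusted p = 3.74e-09), 2.28-fold in RPG3 (log2 fold change -1.19, SE 0.10, adjusted p = 1.34e-18) and 2.47-fold in RPG4 (-1.30, adjusted p = 5.08e-08). Within B1 and B2 the RPG3 values were -1.22 and -1.03, both past the test. RPG1 ran from 287 over a median of 289.8 to 362 CPM and did not pass (0.22, adjusted p = 0.163). Over the 18 clusters, *Stat3* and *Jak1* followed each other (Pearson's r = 0.94 on log2 CPM, a description over clusters that share libraries).

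*Socs2*, the inhibitor, went the other way and set RPG2, RPG3 and RPG4 apart from every SSC1-4 library. In SSC1-4 its CPM ran from 0 over a median of 11.1 to 25.1 (mean 11 ± 6.51). The lowest library, day 16 replicate 1 with 8 SSC1-4 cells, had a count of 0 among 798484 UMIs, which allows up to 3.76 CPM at a limit of 3 counts. RPG1 ran from 11.8 over a median of 13.6 to 24.7. In RPG2 it was 313 on day 12 and 326 and 344 on day 14. It ran from 138 over a median of 171 to 254 in RPG3, and in RPG4 it was 237 and 214. Every library of these 3 classes lay above every SSC1-4 and RPG1 library. The rise was 32.5-fold in RPG2 (log2 fold change 5.02, SE 0.34, adjusted p = 1.37e-22), 18.9-fold in RPG3 (log2 fold change 4.24, SE 0.28, adjusted p = 1.65e-24) and 19.7-fold in RPG4 (log2 fold change 4.30, SE 0.40, adjusted p = 3.65e-15). Within batches it was of like size (RPG3 4.30 in B1 and 4.12 in B2), and RPG1 did not pass (0.49, adjusted p = 0.47). Over clusters *Socs2* ran against *Jak1* (r = -0.83) and *Stat3* (r = -0.79).

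*Socs3*, the inhibitor that acts on gp130 itself, did not pass in any of the 4 classes. It ran from 39.3 over a median of 135 to 191 CPM in SSC1-4 and from 61.7 over a median of 122 to 141 in RPG3, with means of 132 ± 37.1 and 111 ± 27.5. RPG1 averaged 139 ± 28, RPG2 93.7 ± 14.4 and RPG4 122 ± 8.27. The RPG3 difference of -0.03 (SE 0.15, adjusted p = 0.873) was small beside the 4.24 of *Socs2* in the same libraries, on the log2 scale. The remaining values were 0.07 in RPG1, -0.31 in RPG2 and -0.12 in RPG4 (adjusted p 0.88, 0.279 and 0.752).

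**Figure D2:**
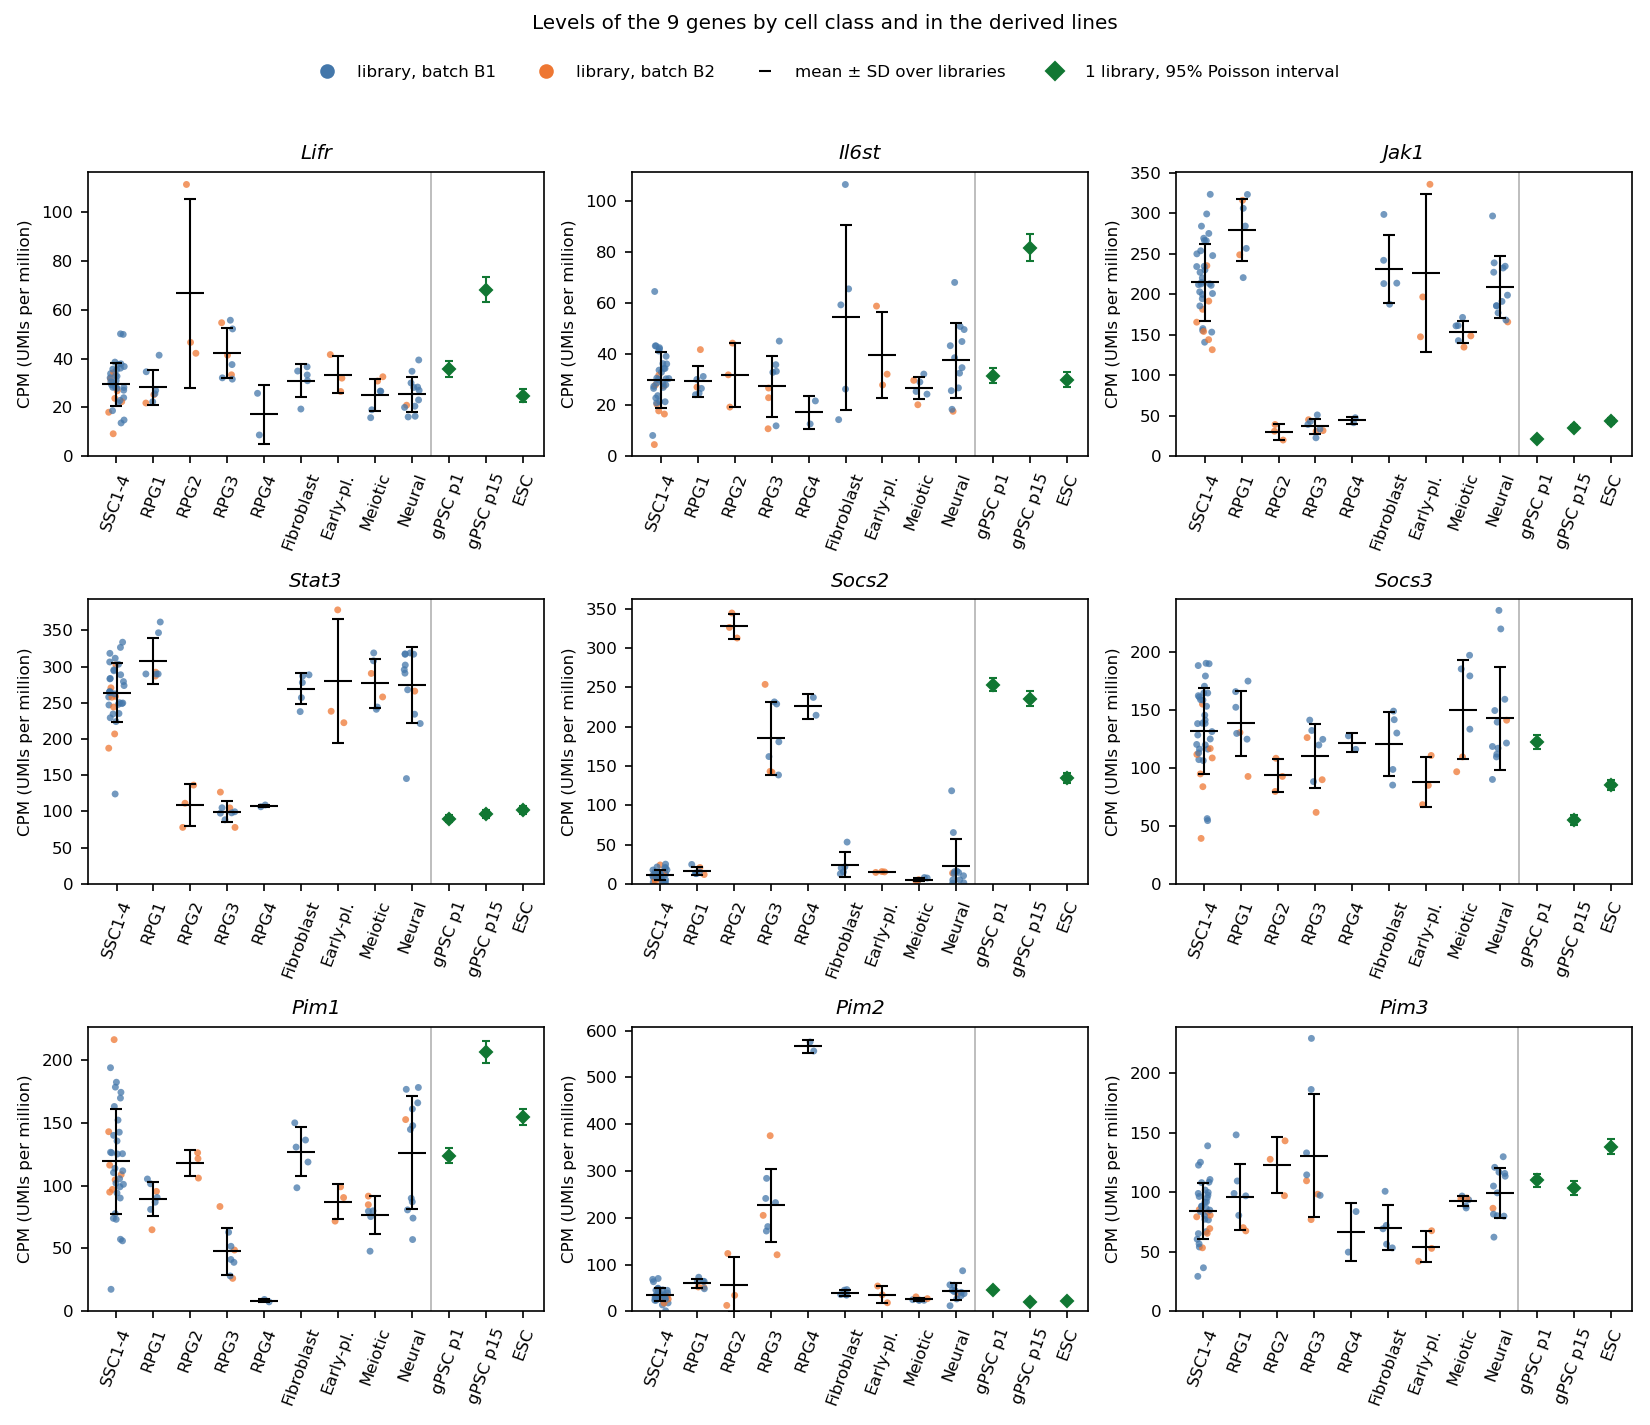
CPM of each gene (y axis, 1 panel a gene) in each library of the 9 classes, coloured by batch, with the mean ± SD over libraries, and in the 1 library each of gPSC p1, gPSC p15 and ESC with its 95% Poisson interval. *Jak1* and *Stat3* are low and *Socs2* high in RPG2, RPG3, RPG4 and the 3 lines, and *Pim1* is lowest and *Pim2* highest in RPG4 (8.5 ± 1.36 and 566 ± 13.6).

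The Pim kinases, close paralogs with overlapping substrates, moved in different directions. *Pim1* ran from 17.5 over a median of 113 to 216 CPM in SSC1-4 (mean 119 ± 41.8) and from 64.9 over a median of 90.6 to 105 in RPG1. In RPG2 it was 126, 121 and 106, and in RPG3 it ran from 26.2 over a median of 45 to 83.4. In RPG4 it was 7.55 and 9.46. Only RPG4 lay below every SSC1-4 library. *Pim1* fell 2.19-fold in RPG3 (log2 fold change -1.13, SE 0.20, adjusted p = 8.71e-07) and 14.1-fold in RPG4 (log2 fold change -3.82, SE 0.49, adjusted p = 5.83e-10). With sums per batch and day, which take in the RPG4 cells of day 27, the RPG4 value was -2.38, adjusted p = 4.84e-05. RPG1 (-0.43, adjusted p = 0.202) and RPG2 (0.14, adjusted p = 0.695) did not pass. Within batches the RPG3 value was -1.16 in B1 and -1.06 in B2, both past the test. Under the library block it did not pass (-0.85, adjusted p = 0.0961).

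*Pim2* ran from 1.14 over a median of 33 to 70.3 CPM in SSC1-4 (mean 35.3 ± 14.2) and from 48.3 over a median of 64 to 72.9 in RPG1. The 3 RPG2 libraries had 12.7 on day 12, 124 on day 14 (replicate 5) and 34.3 on day 14 (replicate 6), so 1 library alone exceeded the SSC1-4 range. In RPG3 the level ran from 121 over a median of 219 to 376, and in RPG4 it was 576 and 557, both classes above every SSC1-4 library. The rise was 7.42-fold in RPG3 (log2 fold change 2.89, SE 0.19, adjusted p = 6.55e-25) and 15.9-fold in RPG4 (log2 fold change 3.99, SE 0.27, adjusted p = 3.13e-22), and in RPG3 it was 2.82 within B1 and 3.22 within B2. RPG2 passed with log2 fold change 0.90, SE 0.31, adjusted p = 0.0168, but without day 14 replicate 5 its sign turned (-0.36, adjusted p = 0.487). Within B2 the call was lost (1.13, adjusted p = 0.0566), as with the library as a block (1.29, adjusted p = 0.0608) and with sums per batch and day (0.53, adjusted p = 0.375). In RPG1 *Pim2* passed (log2 fold change 0.75, SE 0.22, adjusted p = 0.029). This call was lost within B1 (0.76, adjusted p = 0.0562), within B2 (0.85, adjusted p = 0.623) and with the library as a block (0.12, adjusted p = 0.998). It was also lost without any 1 of day 20 replicates 1 and 2 and day 23 replicates 1 and 2 (adjusted p 0.0555 to 0.0607).

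*Pim3* had the smallest changes of the 3 kinases in RPG3 and RPG4. It ran from 29.4 over a median of 85.2 to 139 CPM in SSC1-4 (mean 84.5 ± 23.4). It was 143, 97.1 and 128 in RPG2, ran from 77 over a median of 112 to 229 in RPG3 and was 83.8 and 49.7 in RPG4, with every range overlapping that of SSC1-4. *Pim3* rose in RPG3 (log2 fold change 0.86, SE 0.14, adjusted p = 2.10e-07), with 1.07, adjusted p = 4.65e-07 within B1 and 0.62, adjusted p = 0.0737 within B2, so that the call was kept in B1 alone. RPG2 passed too (log2 fold change 0.71, SE 0.22, adjusted p = 0.00649), which was lost without day 14 replicate 6 (0.60, adjusted p = 0.0856) and with the library as a block (0.83, adjusted p = 0.0521). The RPG2 call was also lost with sums per batch and day (0.80, adjusted p = 0.168) and with a minimum natural-log fold change of 0.5. Neither RPG1 (0.19, adjusted p = 0.586) nor RPG4 (-0.34, adjusted p = 0.401) passed.

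**Figure D3:**
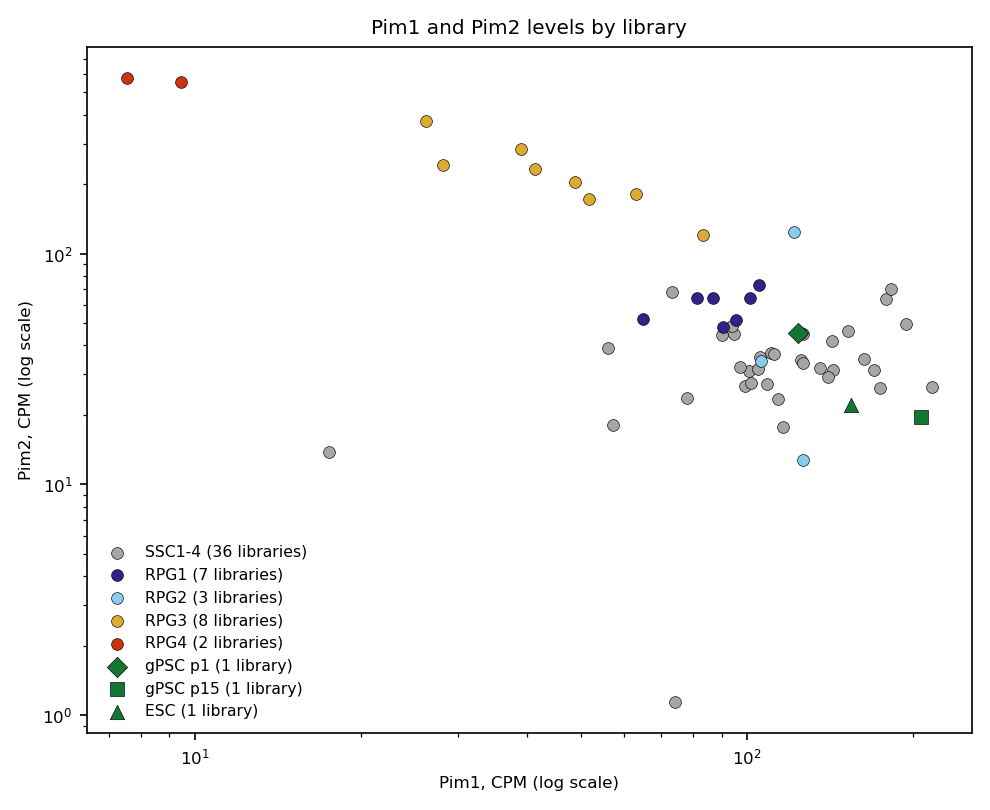
*Pim1* (x axis) against *Pim2* (y axis) in CPM on log scales, 1 point a library, for SSC1-4, RPG1 to RPG4 and the 3 lines. From SSC1-4 the RPG3 and RPG4 libraries lie towards low *Pim1* and high *Pim2*. The gPSC and ESC libraries lie at high *Pim1* (124 to 206 CPM) and low *Pim2* (19.7 to 45.4 CPM), where RPG2 had 106 to 126 and 12.7 to 124 CPM.

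Within RPG3 the libraries ordered these kinases in opposite ways at the ends of their ranges. Day 12 replicate 2, with 7 RPG3 cells, had the highest *Pim1* (83.4 CPM) and the lowest *Pim2* (121), and day 18 replicate 3 the lowest *Pim1* (26.2) and the highest *Pim2* (376).

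From RPG2 to RPG3, *Pim2* rose and *Pim1* fell, and 7 of the 9 genes did not pass. *Pim2* was 3.98-fold higher in RPG3 (log2 fold change 1.99, SE 0.42, adjusted p = 0.00106) and *Pim1* 2.41-fold lower (log2 fold change -1.27, SE 0.30, adjusted p = 0.00353). The *Pim1* ranges of the 2 classes did not overlap and the *Pim2* ranges did. Of all genes, 2.85% were higher and 3.13% lower. Within B2, the only batch with both classes, the values were 2.09, adjusted p = 0.0633 for *Pim2* and -1.10, adjusted p = 0.159 for *Pim1*, so neither call was kept there. *Socs2* lay lower in each RPG3 library than in each RPG2 library without passing (log2 fold change -0.78, SE 0.54, adjusted p = 0.426). From RPG3 to RPG4, 3 genes fell and 0 rose, against 4.99% and 3.94% of all genes. *Pim1* fell 6.47-fold (log2 fold change -2.69, SE 0.47, adjusted p = 2.46e-05), *Lifr* 2.86-fold (log2 fold change -1.51, SE 0.40, adjusted p = 0.00742) and *Pim3* 2.3-fold (log2 fold change -1.20, SE 0.34, adjusted p = 0.0119). *Pim2* lay above all RPG3 libraries in both RPG4 libraries, 2.14-fold higher, and missed the threshold (log2 fold change 1.10, SE 0.41, adjusted p = 0.0753). It passed with RLE size factors (1.22, adjusted p = 0.0406), with DESeq2 (1.22, adjusted p = 0.0359), within B1 (1.18, adjusted p = 0.0464) and with the library as a block (1.08, adjusted p = 3.15e-05). Without day 20 replicate 1, *Lifr* was -0.92, adjusted p = 0.411. Without day 20 replicate 2, *Pim3* was -0.87, adjusted p = 0.371. Day 27 had RPG4 cells too, but only 5 of them over its libraries, so they gave no sum of a library. Pooled over the day, they had 43.5 CPM of *Pim1* beside 8.71 in the 23 RPG4 cells of day 20, 157 of *Pim3* beside 59.6 and 231 of *Socs3* beside 121, so the lowest *Pim1* levels were those of day 20. With sums per batch and day in place of library, which take these cells in, none of the 3 falls was kept (*Pim1* -1.31, adjusted p = 0.0683; *Lifr* -1.32, adjusted p = 0.0729; *Pim3* -0.49, adjusted p = 0.636). With RLE size factors the split of all genes here turned from 790 higher and 999 lower to 964 and 794.

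In the failed branches few of the 9 genes passed, 1 each in Fibroblast, Meiotic and Neural. In Fibroblast, 1 of 9 passed, against 5.63% of all genes. *Il6st* in the 5 libraries, from days 8, 10, 14, 14 and 27, was 59.4, 65.7, 26.4, 14.4 and 107 CPM (log2 fold change 0.80, SE 0.25, adjusted p = 0.0352), against an SSC1-4 range of 4.62 to 64.7. The call was lost without day 8 replicate 1, day 10 replicate 1 or day 27 replicate 5 (log2 fold changes 0.45 to 0.76, adjusted p 0.125 to 0.535). It was lost as well within B1 (0.71, adjusted p = 0.0629), with batch as a covariate (0.74, adjusted p = 0.0585) and with the library as a block (0.04, adjusted p = 0.99). All 11 feeder fibroblast markers were above 1 CPM on average in this class, as they were in SSC1-4 and Neural. They summed to 383 to 2682 CPM in Fibroblast against 13 to 170.4 in SSC1-4, and their part in the *Il6st* level was not tested. In Meiotic, 1 of 9 passed, against 1.86%. *Jak1* ran from 135 over a median of 155 to 171 CPM over 6 libraries and was lower (log2 fold change -0.50, SE 0.13, adjusted p = 0.0249). This call was lost without day 16 replicate 3 or 4 (adjusted p 0.0835 and 0.0801), within B1 (-0.50, adjusted p = 0.0872), within B2 (-0.35, adjusted p = 1), where no gene of all tested passed, and with the library as a block (-0.26, adjusted p = 0.697). In Early-pluripotency 0 of 9 passed with edgeR and 0 with DESeq2, against 1.29% of all genes. The unadjusted p was below 0.05 for 2, *Socs3* (log2 fold change -0.61, SE 0.24, adjusted p = 0.202) and *Pim3* (log2 fold change -0.66, SE 0.25, adjusted p = 0.175).

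In Neural, 1 of 9 passed, against 10.7% of all genes. *Socs2* ran from 0.742 over a median of 13.3 to 118 CPM over 12 libraries, with day 27 replicates 1 and 2 at 118 and 65.3 and the other 10 at or below 16.1. The difference from SSC1-4 passed (log2 fold change 1.09, SE 0.27, adjusted p = 0.00383). Without day 27 replicate 1 the value was 0.47, adjusted p = 0.254, and in a fit blocked by library, where 10 libraries held both classes, its sign turned (-0.80, adjusted p = 0.526). Cluster Neural 3 lay in those 2 libraries. In Neural 3, *Socs2* averaged 237 CPM, *Jak1* 65.5, *Pim1* 48.4, *Stat3* 221 and *Pim2* 15.5, beside 11.4, 216, 127, 256 and 43.8 in Neural 1. Its *Socs2*, *Jak1* and *Pim1* levels were thus nearer to those of RPG3 (185, 37.2 and 47.7) than to those of Neural 1, while *Stat3* and *Pim2* were nearer to Neural 1. These are values of clusters drawn on the same cells and were not tested. Fibroblast 2 had the highest *Il6st* of any cluster (155 CPM, beside 29.1 in Fibroblast 1) and a *Socs2* of 47.2 beside 14.6. Early-pluripotency 2, with 1 library, had 336 CPM of *Jak1* and 377 of *Stat3*, the highest of the clusters that gave sums. Among the SSC clusters, *Jak1* averaged 184, 216, 237 and 282 CPM in SSC1 to SSC4 and *Pim1* 129, 145, 117 and 78.1.

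**Figure D4:**
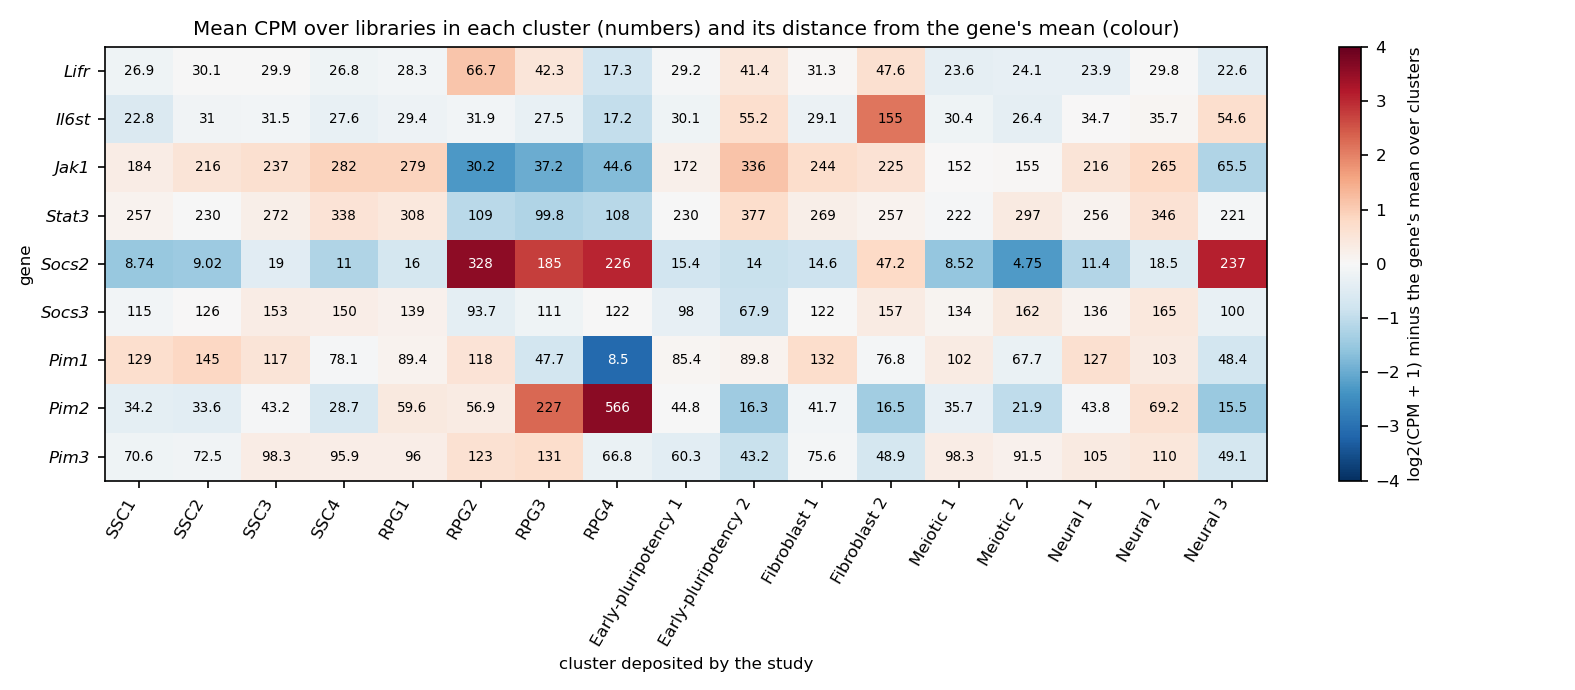
Mean CPM over libraries (numbers) of the 9 genes (rows) in each deposited cluster that gave a sum of at least 5 cells in a library (columns), coloured by log2(CPM + 1) minus the gene's mean over clusters. RPG2, RPG3, RPG4 and Neural 3 share high *Socs2* and low *Jak1* (30.2, 37.2, 44.6 and 65.5), and high *Pim2* stands in RPG3 and RPG4.

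Ordered by mean, the 9 classes ran for *Lifr* from RPG2 over RPG3, Early-pluripotency, Fibroblast, SSC1-4, RPG1, Neural and Meiotic to RPG4, and no neighbours in this order differed by more than the larger of their SDs. The same was true of *Socs3*, from Meiotic (150.5 ± 42.7 CPM) down to Early-pluripotency (88.1 ± 21.4), and of *Pim3*, from RPG3 down to Early-pluripotency (54.2 ± 12.9). For *Il6st* the order ran from Fibroblast (54.5 ± 36.3) to RPG4, and only the last step, from Meiotic (26.9 ± 4.36) to RPG4, exceeded the spread. *Jak1* ran from RPG1 over Fibroblast, Early-pluripotency, SSC1-4 and Neural (209 ± 38.3) to Meiotic (153 ± 13.6), RPG4, RPG3 and RPG2, with steps beyond the spread after RPG1, after Neural and, with no overlap, after Meiotic. In *Stat3* a single step did so, from SSC1-4, the lowest of 6 classes between 264 and 308, to RPG2. *Socs2* fell from RPG2 to RPG4 and RPG3 and then to Fibroblast (24.6 ± 16.3), and the steps from RPG2 to RPG4 and from RPG3 to Fibroblast lay beyond the spread and without overlap. In the order of *Pim1*, from Fibroblast (127 ± 19.5) to RPG4, the steps from RPG2 to RPG1, from Meiotic (76.5 ± 15.1) to RPG3 and from RPG3 to RPG4 exceeded the spread, and in that of *Pim2* the steps from RPG4 to RPG3 and from RPG3 to RPG1 did. RPG4, with 2 libraries, and RPG2, with 3, give rough SDs.

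The derived lines gave 1 library each, with 48 gPSC p1, 32 gPSC p15 and 45 ESC cells and 14035664, 10833720 and 14807169 UMIs, so no test was made and the 95% Poisson intervals in parentheses cover counting error only. *Jak1* was 21.9 CPM (19.5 to 24.5) in gPSC p1, 35.4 CPM (32 to 39.2) in gPSC p15 and 43.4 CPM (40.1 to 46.9) in ESC. *Stat3* was 89.8 CPM (84.9 to 94.9), 96.6 CPM (90.8 to 103) and 102 CPM (96.8 to 107) in the same order. Both genes lay below every SSC1-4 library, *Stat3* within the RPG3 range and *Jak1* within it except in gPSC p1, just under its lower end of 22.9. *Socs2* was 253 CPM (245 to 261) in gPSC p1, 236 CPM (227 to 245) in gPSC p15 and 135 CPM (129 to 141) in ESC, all above the SSC1-4 range. The *Pim1* and *Pim2* levels of the lines lay within the SSC1-4 ranges and outside those of RPG3 and RPG4. The RPG2 ranges (106 to 126 CPM of *Pim1*, 12.7 to 124 of *Pim2*) held the *Pim2* level of every line and the *Pim1* level of gPSC p1. *Pim1* was 124 CPM (118 to 129.7), 206 CPM (198 to 215) and 155 CPM (148 to 161), and *Pim2* 45.4 CPM (41.9 to 49), 19.7 CPM (17.1 to 22.5) and 22.1 CPM (19.8 to 24.6). Against the RPG4 mean, *Pim1* was 14.6-fold, 24.2-fold and 18.2-fold higher and *Pim2* 12.5-fold, 28.8-fold and 25.6-fold lower, and the lines were kept in another medium than the RPG cells. That mean is of day 20, and the 5 RPG4 cells of day 27 had 43.5 CPM of *Pim1*. *Pim3* was 110.1 CPM (105 to 116), 104 CPM (97.6 to 109.8) and 138 CPM (132 to 144), and *Socs3* 122 CPM (117 to 128), 54.7 CPM (50.4 to 59.3) and 85.3 CPM (80.7 to 90.1). The receptor chains were highest at passage 15. *Lifr* was 35.6 CPM (32.5 to 38.8) in p1, 68.1 CPM (63.3 to 73.2) in p15 and 24.7 CPM (22.2 to 27.4) in ESC, and *Il6st* 31.5 CPM (28.6 to 34.6), 81.8 CPM (76.5 to 87.3) and 30.1 CPM (27.4 to 33).

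Within SSC1-4 the day of culture was fitted as a slope over the 36 libraries of days 0 to 27, to ask whether the genes changed over the culture within that class. With edgeR 0 of 9 genes passed, against 4.02% of the genes tested, 1 had an unadjusted p below 0.05, and DESeq2 called 1. RLE size factors moved the split of all genes from 236 higher and 482 lower to 250 and 330. Both were *Socs2*, with a log2 slope of 0.07 a day (SE 0.03, edgeR adjusted p = 0.214; DESeq2 0.07, adjusted p = 0.0456). It had 2.09 CPM in the single library of day 0. Its means for days 12, 14, 16, 18, 20, 23 and 27 were 6.4, 12.3, 3.08, 11.6, 15.7, 11.9 and 14.8 CPM. The low day 16 stood between higher days, and all of them lay below every RPG3 library. The other slopes lay between -0.01 for *Pim1* and 0.02 for *Pim3*.

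In the scTrio-seq2 samples the question is whether 5C changed the genes within a class. Cells were classed as the study predicted them from their transcriptomes, and sums of at least 5 cells were compared for SSC1-4 (8 samples with 5C, 3 with DMSO), RPG1 (4 and 2) and RPG3 (6 and 2), with 283136 to 6601401 UMIs each. The 5C samples were taken on days 12 to 16 and the DMSO samples on days 20 and 24, with 8 cells of day 0, so treatment and day cannot be told apart. In RPG3, *Stat3* and *Pim1* were higher and *Pim3* lower with 5C, where 8.38% of 13513 genes were higher and 8.27% lower. With RLE size factors the split of all genes turned from 1132 higher and 1118 lower to 1042 and 1219. *Stat3* was 37.5 and 42.2 CPM with DMSO and ran from 70.2 over a median of 124 to 164 with 5C (2.29-fold, log2 fold change 1.2, SE 0.26, adjusted p = 0.000774). *Pim1* was 31.3 and 31.5 with DMSO and ran from 72.3 over a median of 95.5 to 118 with 5C (2.26-fold, log2 fold change 1.18, SE 0.26, adjusted p = 0.00127). For both genes every 5C sample lay above both DMSO samples, and both passed without any 1 sample. Without DMSO replicate 1 or 2 a single DMSO sample is left, and its spread is then assumed to be that of the other groups, so these fits check the DMSO side little. *Pim3* was 154 and 168 with DMSO and ran from 74.6 over a median of 120.4 to 163 with 5C (log2 fold change -0.89, SE 0.29, adjusted p = 0.0311). That call was lost without 5C replicate 1 or 7 or DMSO replicate 1 or 2 (adjusted p 0.0511 to 0.164). *Lifr* and *Il6st* also lay higher in each 5C sample without passing (*Lifr* log2 fold change 1.17, SE 0.57, adjusted p = 0.16; *Il6st* log2 fold change 1.15, SE 0.45, adjusted p = 0.0778), and *Il6st* passed with DESeq2 (1.11, adjusted p = 0.0344). The SSC markers also differed, summing to 415 to 762 CPM in RPG3 with 5C and 279 to 284 with DMSO, and their part in the *Stat3* and *Pim1* levels was not tested. That list includes *Etv5*, which in the original condition averaged 232 CPM in RPG3 and 71.3 in SSC1-4. The 4 others, *Jak1* (0.57), *Socs2* (0.20), *Socs3* (0.10) and *Pim2* (0.32), did not pass.

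In the SSC1-4 cells *Pim1* went down with 5C and *Jak1* up. The DMSO sums here came from replicates 3, 4 and 5 and those of RPG3 from replicates 1 and 2, so no DMSO sample gave both. In this comparison 7.78% of all genes were higher and 6.8% lower. With RLE size factors the split of all genes turned from 1051 higher and 919 lower to 937 and 1042. *Pim1* was 147, 239.6 and 199.8 CPM in DMSO replicates 3, 4 and 5 and ran from 93.1 over a median of 98.8 to 143 over the 8 5C samples, all below (log2 fold change -0.87, SE 0.19, adjusted p = 0.00131). *Jak1* was 242, 176 and 169 with DMSO and ran from 208 over a median of 349.6 to 508 with 5C (log2 fold change 0.77, SE 0.24, adjusted p = 0.0252), with overlap. Its call was lost without 5C replicate 2 or DMSO replicate 4 or 5 (adjusted p 0.0629 to 0.151). The 9 immediate-early genes summed to 432 to 784 CPM with 5C and 410.2 to 489 with DMSO. The 9 feeder fibroblast markers in this table summed to 13.8 to 43 CPM with 5C and 50.1 to 79 with DMSO, without overlap, and their part in the *Pim1* and *Jak1* differences was not tested. *Stat3* did not pass there (log2 fold change 0.18, SE 0.19, adjusted p = 0.6). A test of the difference between the 5C effects of RPG3 and SSC1-4 passed for 2 of 9 genes, against 8.5% of all genes. Since the classes had different DMSO samples, their difference cannot be told apart from one between DMSO samples, and the 6 5C samples that gave both classes were fitted as independent. *Pim1* differed by 2.05 (SE 0.33, adjusted p = 3.74e-05) and passed without any 1 sample, with the same limit for DMSO replicates 1 and 2. *Stat3* differed by 1.02 (SE 0.31, adjusted p = 0.0318), a call lost without 5C replicate 3 or 7 or DMSO replicate 1, 2, 4 or 5 (adjusted p 0.0565 to 0.159). In RPG1, 0 of 9 passed with edgeR and 1 with DESeq2, against 8.58% of all genes, and 1 had an unadjusted p below 0.05. It was *Socs2*, at 74.2 and 22.2 CPM with DMSO and 22.5, 21.7, 17 and 12.7 with 5C (log2 fold change -1.48, SE 0.55, adjusted p = 0.0828; DESeq2 -1.57, adjusted p = 0.0349). Its high DMSO value came from DMSO replicate 1, a sample of 6 cells. *Socs3* did not pass (0.57, adjusted p = 0.399), and its value turned on the 2 DMSO samples (162 and 28.9 CPM), with 2.2, adjusted p = 0.0134 without replicate 1 and -0.24, adjusted p = 0.788 without replicate 2. When all cells of a sample were summed regardless of class, no member passed, and *Pim1* (-0.42, adjusted p = 0.36) had the sign of SSC1-4.

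**Figure D5:**
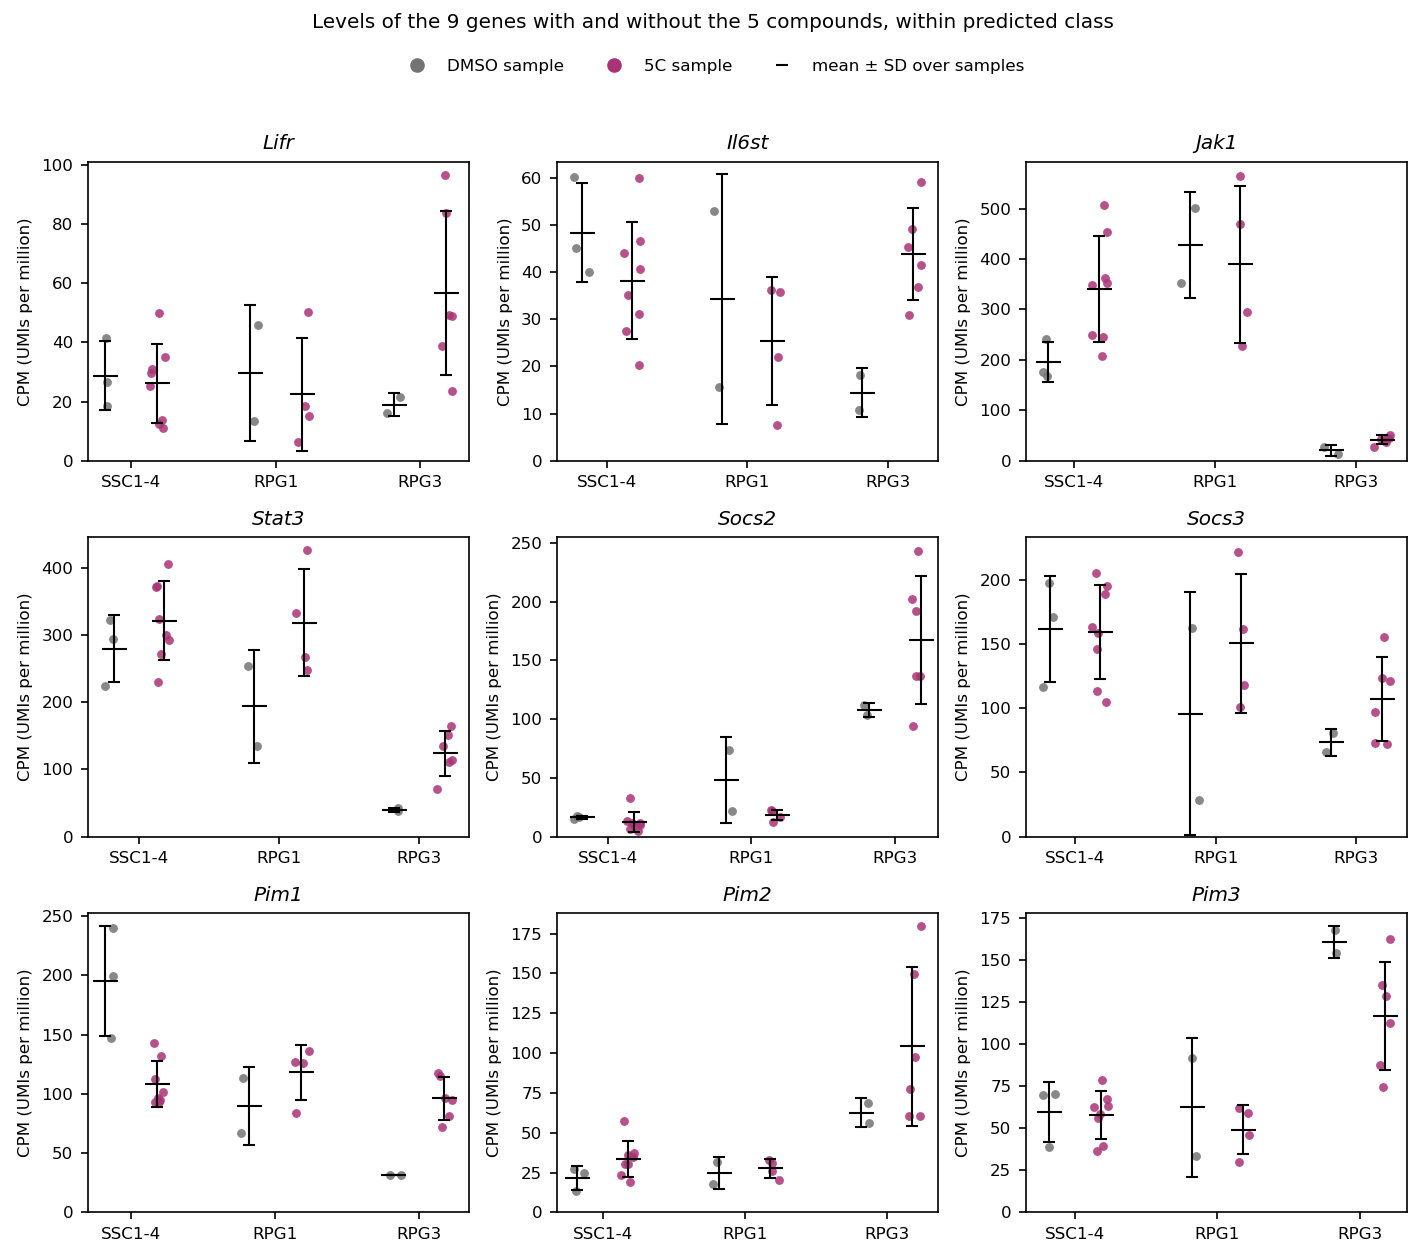
CPM of each gene (y axis, 1 panel a gene) in each DMSO and 5C sample within the predicted classes SSC1-4, RPG1 and RPG3, with the mean ± SD over samples. In RPG3 the *Stat3* and *Pim1* levels with 5C (124 ± 33.4 and 96.2 ± 17.9) lie above those with DMSO (39.8 ± 3.28 and 31.4 ± 0.138), and in SSC1-4 *Pim1* with 5C (108 ± 19.3) lies below DMSO (195 ± 46.6).

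The members were set beside lists of the wider pathway, 53 genes that include every member but *Pim2*, of which 51 were tested between classes. In RPG3 against SSC1-4, 23 of them were higher and 16 lower, with a median log2 fold change of 0.40 beside -0.25 over all genes. Of all genes, 25.2% were higher and 31.5% lower, so most genes passed here. The 8 ligands gave 6 tested genes, 5 higher and 1 lower, the 6 receptor chains 1 higher and 3 lower, and the 4 JAK kinases 1 higher and 2 lower. Of the 7 STAT factors 2 were higher and 4 lower, and of the 16 inhibitors (SOCS, PIAS and phosphatase genes) 6 were higher and 5 lower. Among 13 genes known as STAT3 targets in mouse ESCs, 8 were higher and 1 lower with a median of 1.98, and this list includes *Socs3*, *Pim1* and *Pim3*. The ligand gene *Osm* (oncostatin M) had 5.29 ± 5.24 CPM in RPG3 against 0.111 ± 0.32 in SSC1-4 (log2 fold change 6.09, SE 0.76, adjusted p = 5.47e-11), from 34 UMIs over all SSC1-4 sums. *Klf5*, a pluripotency transcription factor, had 241 ± 56.1 against 11.8 ± 10.6 (log2 fold change 4.59, SE 0.28, adjusted p = 3.08e-26), and *Myc* 67.8 ± 22.3 against 3.41 ± 3.26 (log2 fold change 4.46, SE 0.46, adjusted p = 2.28e-14).

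Along the branch the STAT3 target list had 1 higher and 0 lower in RPG1, 9 and 0 in RPG2 and 4 and 4 in RPG4 against SSC1-4, and 0 and 6 from RPG3 to RPG4. The shares of all genes that were higher and lower were 2.58% and 2.03% in RPG1, 17.5% and 18.5% in RPG2, 12.6% and 15.1% in RPG4 and 3.94% and 4.99% from RPG3 to RPG4. In RPG1, 3 of the 51 genes passed, among them *Myc* (log2 fold change 2.56, SE 0.49, adjusted p = 0.000216) and the receptor chain gene *Cntfr* (log2 fold change -2.89, SE 0.91, adjusted p = 0.047, at 0.295 ± 0.325 CPM against 2.19 ± 2.59). With the library as a block no gene was called lower in RPG1, so the *Cntfr* call was not kept. In RPG2 18 were higher and 8 lower. *Lif* itself had 5.61 ± 1.06 CPM against 0.144 ± 0.243 in SSC1-4 (log2 fold change 5.18, SE 0.75, adjusted p = 1.73e-08) and *Osm* 10.6 ± 3.73 against 0.111 ± 0.32 (log2 fold change 7.04, SE 0.88, adjusted p = 1.83e-10). *Pramel7*, a STAT3 target of naive ESCs, had 3.12 ± 5.4 against 0.0699 ± 0.148 (log2 fold change 5.69, SE 0.99, adjusted p = 1.58e-06), with all of its 60 UMIs in day 14 replicate 6 and 0 in the other libraries. In RPG4 10 were higher and 16 lower. The IL-6 receptor gene *Il6ra* had 1 UMI over both libraries (55.5-fold lower, 95% counting interval 9.96 to 2193), and the ligand gene *Il11* had 12 UMIs, all in day 20 replicate 1 (log2 fold change 4.03, SE 1.45, adjusted p = 0.0282). From RPG3 to RPG4 the naive pluripotency factors *Tfcp2l1* (1.3 ± 0.411 CPM against 54.1 ± 37.1, log2 fold change -5.63, SE 1.33, adjusted p = 0.00234) and *Klf4* (2.61 ± 3.14 against 64.4 ± 67, log2 fold change -4.69, SE 0.82, adjusted p = 2.33e-05) were lower, as was *Bcl3* (4.83 ± 5.7 against 33.2 ± 5.99, log2 fold change -2.94, SE 0.70, adjusted p = 0.00264). From RPG2 to RPG3 the only passing genes outside the members were *Il6ra* (log2 fold change -3.14, SE 0.74, adjusted p = 0.00348) and the kinase gene *Tyk2* (log2 fold change 1.23, SE 0.38, adjusted p = 0.0377).

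In the failed branches 4 of the 51 genes were higher and 1 lower in Fibroblast, 1 and 0 in Early-pluripotency, 1 and 1 in Meiotic and 2 and 2 in Neural. Of all genes, 5.63%, 1.29%, 1.86% and 10.7% passed in these classes in the same order. In Fibroblast the oncostatin M receptor gene *Osmr* led (36.4 ± 41.3 CPM against 1.68 ± 3.63, log2 fold change 4.67, SE 0.76, adjusted p = 1.44e-06), with *Lif* (log2 fold change 3.26, SE 0.71, adjusted p = 0.000472) and *Myc* (log2 fold change 2.92, SE 0.54, adjusted p = 2.70e-05). *Osmr* is also expressed by fibroblasts, whose markers are raised in this class as given above, and that part was not tested. *Myc* was higher in Early-pluripotency (log2 fold change 2.55, SE 0.66, adjusted p = 0.0276), a class whose sums all came from batch B2, and within B2 no gene passed in this comparison. The phosphatase gene *Ptpn1* was higher in Meiotic (log2 fold change 0.47, SE 0.13, adjusted p = 0.0296), where no gene passed with sums per batch and day or within B2, and lower in Neural (log2 fold change -0.37, SE 0.10, adjusted p = 0.0115). In Neural *Klf5* was higher (log2 fold change 0.88, SE 0.29, adjusted p = 0.0362) and *Socs5* lower (log2 fold change -0.80, SE 0.27, adjusted p = 0.0422). Over days in SSC1-4 0 of 47 tested genes of the lists passed with edgeR. With 5C, 5 of 47 were higher and 1 lower in RPG3, 2 and 1 in RPG1 and 7 and 1 in SSC1-4. Of all genes, 8.38% were higher and 8.27% lower in RPG3, 8.58% passed in RPG1, and 7.78% were higher and 6.8% lower in SSC1-4. In RPG3 these included *Klf4* (196 ± 45.6 CPM against 42.3 ± 7.96, log2 fold change 1.77, SE 0.36, adjusted p = 0.000445), *Socs5* (log2 fold change 2.28, SE 0.57, adjusted p = 0.00371) and *Pias2* (log2 fold change 0.66, SE 0.24, adjusted p = 0.0482). In SSC1-4 they included *Junb* (84.8 ± 42.5 against 9.65 ± 4.26, log2 fold change 3.05, SE 0.41, adjusted p = 9.08e-07), *Myc* (log2 fold change 3.37, SE 0.83, adjusted p = 0.00412) and *Pias3* (log2 fold change 2.50, SE 0.70, adjusted p = 0.0109), and in RPG1 they were *Il11ra1* (log2 fold change -3.56, SE 0.91, adjusted p = 0.0104), *Socs5* (log2 fold change 1.88, SE 0.62, adjusted p = 0.048) and *Socs6*, which had 1 UMI with DMSO and 123 with 5C (17.8-fold, 95% counting interval 3.14 to 709). In RPG1 *Il11ra1* rested on 15 UMIs with DMSO and 11 with 5C, and *Socs5* on 11 with DMSO and 332 with 5C. The 5C effects of RPG3 and SSC1-4 differed for *Junb* (log2 fold change -2.75, SE 0.54, adjusted p = 0.000501) and *Klf4* (log2 fold change 1.76, SE 0.45, adjusted p = 0.00842). The limit on DMSO samples given above holds for both.

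The genes whose levels over the 18 clusters were most like a member's were named by Pearson's r on log2(CPM + 1) among 20029 others, as a description over clusters that share libraries and with no statement on function. They were *Pnp2* (r = 0.89) and *Ddx58* (r = 0.86) for *Lifr*, *Sec31a* (r = 0.95) and *Tbx15* (r = 0.93) for *Il6st*, *Cacnb4* (r = 0.97) and *Arhgap29* (r = 0.97) for *Jak1* and *Zbtb20* (r = 0.97) and *Ddx50* (r = 0.95) for *Stat3*. For the inhibitors they were *Pcbp1* (r = 0.97) and *Tma7* (r = 0.97) for *Socs2* and *Pyroxd1* (r = 0.85) and *Acta1* (r = 0.85) for *Socs3*. For the Pim kinases they were *Lhx6* (r = 0.92) and *Gkap1* (r = 0.89) for *Pim1*, *Fam19a4* (r = 0.94) and *Pcsk1n* (r = 0.94) for *Pim2* and *Pkp3* (r = 0.88) and *Sh3gl2* (r = 0.87) for *Pim3*. No member was the nearest gene of another, and between members the closest pair was *Jak1* and *Stat3*.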

How the data were processed

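The STRT-seq and scTrio-seq2 RNA tables were used as deposited: UMI counts per gene and cell, which the authors made with UMItools, STAR 2.7.2b and featureCounts 2.0.0 (versions from the submitters' processing notes), after their filters on cells. How doublets were handled before deposit is not given in the sources used here, and none were removed here. Clusters and batches were those deposited by the authors, the classes of scTrio-seq2 cells were the predictions the study gives for each cell, and the methylation files were not used here.

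Counts were summed over the cells of a class in a library (at least 5 cells), which gave 82 sums of 9 classes, and sums were fitted in edgeR 4.0.16 (R 4.3.3, limma 3.58.1) with TMM scaling, filterByExpr and the quasi-likelihood F test, with Benjamini-Hochberg adjustment over all genes tested. SE is the absolute log2 fold change divided by the square root of F. DESeq2 1.42.0 was an alternative. CPM values, intervals and figures were made in Python 3.11 with numpy 2.4.6, pandas 2.3.3, scipy 1.17.1 and matplotlib 3.10.9. The fits were also run on simulated counts, and the outcome is not reported here. Poisson intervals of single libraries cover counting error only.

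The 9 genes and the pathway and marker lists were chosen with earlier results of these data known. Pathway genes named were, per comparison, up to 3 outside the members that passed with the largest absolute log2 fold change, of which not all are reported here, and genes of like pattern were the 2 with the highest Pearson's r over clusters. Nothing in the labels says that libraries of a day came from separate cultures, so p-values measure the spread between libraries, which may be technical.

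Alternatives were DESeq2, RLE size factors, no low-count filter, a minimum natural-log fold change of 0.5, each batch alone, batch as a covariate, the library as a block, sums per batch and day, all cells of a sample and leaving out each library.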

Additional observations from a re-analysis of the deposited data

Results flagged for a closer look

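In 5 of 63 groups of 4 to 10 samples, 1 sample lay far from the others by Dixon's criterion at 95%, which chance alone gives in about 1 group in 20. *Il6st* in RPG1 was highest in day 18 replicate 3, at 41.9 CPM against a median of 27.2 over 7 libraries. *Socs2* in Fibroblast was highest in day 27 replicate 5, at 53.1 CPM against a median of 20.2 over 5. *Socs2* in the 5C SSC1-4 samples was highest in 5C replicate 3, at 32.9 CPM against 10.7 over 8, and *Pim2* there in 5C replicate 5, at 57.6 CPM against 32.7. *Pim1* in Meiotic was lowest in day 16 replicate 3, at 47.8 CPM against 79.8 over 6. Between groups, the 5C effects of RPG3 and SSC1-4 differed by 1.02 on the log2 scale for *Stat3* and by 2.05 for *Pim1*, by a test of the difference in edgeR as given above, and day cannot be told apart from treatment in either class. The DMSO sums of these classes came from different samples (replicates 1 and 2 in RPG3, 3 to 5 in SSC1-4), so the difference cannot be told apart from one between DMSO samples.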

How the results depend on the processing

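Of 1818 recomputed fold changes of the 9 genes, 1734 stayed on their side of the threshold, 70 no longer passed, 11 came to pass and 3 turned sign. The 3 were *Pim2* in RPG2 without day 14 replicate 5 (-0.36, against up to 1.39 without another library), *Socs2* in Neural with the library as a block (-0.80) and *Pim1* in RPG3 with 5C over all cells of a sample (-0.42). Of the 1734, 1331 passed in neither fit, and 127 of these had another sign. The number of the 9 genes that passed in RPG1 was 0 within batch B1, 0 within B2 and 0 with the library as a block, and 1 with a minimum natural-log fold change of 0.5 and with sums per batch and day. In RPG2 it was 3 with the library as a block and 4 with sums per batch and day. From RPG2 to RPG3 it was 0 within B2 and 1 with sums per batch and day, and from RPG3 to RPG4 0 with sums per batch and day. In Fibroblast it was 0 within B1, with batch as a covariate, with the library as a block and with sums per batch and day. In Meiotic it was 2 with DESeq2 and 0 within B1, within B2, with the library as a block, with the minimum fold change and with sums per batch and day (within B2 and with these sums no gene of all tested passed). In Neural it was 0 within B2, with the library as a block and with sums per batch and day. The trend over days had 1 with DESeq2 and 0 over days 12 to 27 alone, which was chosen after seeing the data, and with 5C there was 1 with DESeq2 in RPG1 and 0 over all cells of a sample in SSC1-4 and RPG3. Leaving out 1 library at a time gave 0 to 1 genes in RPG1, 5 to 6 in RPG2, 7 in RPG3, 5 to 6 in RPG4, 2 from RPG2 to RPG3, 2 from RPG3 to RPG4, 0 to 1 in each of Fibroblast, Meiotic and Neural, 1 to 2 with 5C in SSC1-4, 0 to 1 with 5C in RPG1, 2 to 3 with 5C in RPG3 and 1 to 2 for the difference between 5C effects. A lone library left in RPG4, or a lone DMSO sample left in RPG3 or RPG1, is assumed to vary like the other groups. The replicate number as a block in 5C SSC1-4 gave 2 genes as well, and same-numbered samples did not deviate together (correlations 0.013, 0.00698 and -0.0251). No paired analysis was possible for 5C in RPG3 and RPG1 because the treatments shared 1 replicate number. Over all genes, DESeq2 gave 328 higher and 578 lower in RPG1 (edgeR 517 and 406), 1191 and 699 from RPG2 to RPG3 (571 and 627), 166 and 524 in Early-pluripotency (183 and 75) and 144 and 381 in Meiotic (220 and 153), and it moved the median of all genes in RPG2 from -0.52 to -0.40. Within B2, 33 genes were higher and 3 lower in RPG1. The cause of these shifts was not tested. RPG4 with 2 libraries and RPG2 with 3 limit what could be told apart.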
